A study of Mus musculus with 12 samples.

Results

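The Th2 program genes described here are Gata3, Stat6, Il4, Il5, Il13, Il1rl1, Ccr4 and Ccr8, 8 genes chosen by name out of the 35275 in the table. They were followed in CD4+ T cells purified from the 12 female mice of the study, 3 in each of 4 groups, with 1 RNA-Seq library per mouse. The groups were C57BL/6 (B6) mice left untreated, B6 mice given anti-CD45RB (clone MB23G2, 100 μg a dose over a 7-day course), B6.NZMSle1/Sle2/Sle3 (SLE123) mice left untreated, and SLE123 mice given the same antibody. SLE123 is a congenic strain that carries lupus susceptibility intervals on the B6 background, and the study's methods put the mice at 9 weeks of age. The methods also describe a magnetic sort into CD25+ and CD25- cells, but the labels name no such fraction. No label says whether mice of a group shared a litter or cage, so p-values measure the spread between these mice.

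T helper 2 (Th2) cells are the CD4+ T cells that drive type 2 responses against parasites and in allergy. IL-4 signals through its receptor to STAT6, and STAT6 raises GATA3, the transcription factor that opens the locus holding Il4, Il13 and Il5. Il1rl1 encodes ST2, the receptor for IL-33, and Ccr4 and Ccr8 encode chemokine receptors that guide Th2 cells into tissue. None of these genes is particular to Th2 cells. Regulatory T cells (Tregs) also carry ST2, CCR4 and CCR8, T follicular helper (Tfh) cells make IL-4, and basophils make IL-4 and IL-13.

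The cytokine genes share 1 locus on chromosome 11 (GRCm38), with Il4 at chr11:53602982-53618669 and Il13 at chr11:53631324-53634702 on the minus strand and Il5 at chr11:53720794-53725106 on the plus strand. The others lie apart, with Gata3 at chr2:9857078-9890034, Stat6 at chr10:127642986-127660957, Il1rl1 at chr1:40429570-40465415, Ccr4 at chr9:114490316-114504916 and Ccr8 at chr9:120092114-120094906. The promoters of the 3 cytokines and of the 2 receptor genes with the largest differences are printed 5′ to 3′ from RefSeq (GRCm38.p6), from 250 bases before to 50 bases after the start. Capitals mark GATA letters, which are AGATAA, its variant beginning with T (TGATAA) and the forms of each that end in G (AGATAG for the first, and for the other TGATAG), and the STAT6 spacing TTCNNNNGAA, all searched on both strands.
Il4 (chr11:53618616-53618915, minus strand): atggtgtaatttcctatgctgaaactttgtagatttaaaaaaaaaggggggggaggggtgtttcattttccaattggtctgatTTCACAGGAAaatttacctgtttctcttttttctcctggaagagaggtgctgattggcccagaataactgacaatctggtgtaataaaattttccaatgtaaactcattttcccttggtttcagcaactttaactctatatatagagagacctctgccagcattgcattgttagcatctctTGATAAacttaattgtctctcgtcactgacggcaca
Il13 (chr11:53634653-53634952, minus strand): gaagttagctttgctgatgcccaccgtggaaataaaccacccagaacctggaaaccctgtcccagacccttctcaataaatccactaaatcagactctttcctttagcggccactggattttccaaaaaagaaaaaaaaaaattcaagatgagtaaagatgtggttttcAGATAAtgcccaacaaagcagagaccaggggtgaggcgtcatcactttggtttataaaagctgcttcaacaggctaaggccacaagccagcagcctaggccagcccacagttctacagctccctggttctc
Il5 (chr11:53720544-53720843, plus strand): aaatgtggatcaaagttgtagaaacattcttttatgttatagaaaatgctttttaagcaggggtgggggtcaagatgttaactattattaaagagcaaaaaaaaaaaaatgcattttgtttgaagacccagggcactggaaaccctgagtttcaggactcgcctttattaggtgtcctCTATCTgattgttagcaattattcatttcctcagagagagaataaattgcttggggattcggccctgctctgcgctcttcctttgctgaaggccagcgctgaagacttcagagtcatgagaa
Il1rl1 (chr1:40429320-40429619, plus strand): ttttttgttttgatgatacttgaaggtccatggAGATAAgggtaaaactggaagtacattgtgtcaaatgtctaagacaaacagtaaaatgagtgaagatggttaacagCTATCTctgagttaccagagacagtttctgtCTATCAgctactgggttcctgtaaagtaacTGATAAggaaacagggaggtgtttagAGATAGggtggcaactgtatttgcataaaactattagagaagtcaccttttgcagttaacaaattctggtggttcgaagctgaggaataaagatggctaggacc
Ccr8 (chr9:120091883-120092182, plus strand): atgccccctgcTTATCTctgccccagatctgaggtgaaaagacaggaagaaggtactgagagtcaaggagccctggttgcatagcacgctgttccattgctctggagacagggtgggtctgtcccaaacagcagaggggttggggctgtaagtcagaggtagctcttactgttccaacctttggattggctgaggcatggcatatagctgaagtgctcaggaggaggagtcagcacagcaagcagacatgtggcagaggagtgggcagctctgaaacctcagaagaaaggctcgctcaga
The Il4 window held 1 STAT6 match and 1 GATA match, and the Il13, Il5 and Ccr8 windows held 1 GATA match each. The Il1rl1 window held 5 GATA matches. Il1rl1 and Il4 each have another RefSeq start, not printed, whose window (chr1:40439379-40439678 and chr11:53617289-53617588) held 1 GATA match and no STAT6 match. Of 32851 RefSeq promoters of this length, 29.8% held a GATA match and 6.95% a STAT6 match, and a match describes letters only.

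Libraries held 13563595 to 23642951 fragments. The CD4 T cell marker sum was 2560 to 3280 FPKM (fragments scaled to transcript length and to the mapped fragments of the library), and CD8 T cell markers summed to 19.4 FPKM at most. RNA of other cells differed between groups. The 9 basophil markers summed to 5.5 to 7.33 FPKM in untreated B6 mice, 20.5 to 39.6 in treated B6 mice, 103 to 117 in untreated SLE123 mice and 35.7 to 45.4 in treated SLE123 mice. B cell markers summed to 6.11 to 7.3, 25 to 33.5, 62.0 to 223 and 36.7 to 56.5 FPKM in the same order. Eosinophil markers summed to 1.69 to 2.01, 4.18 to 9.07, 46.1 to 75.2 and 11 to 17.3 FPKM, and monocyte and neutrophil markers to 4.34 to 9.19, 48.4 to 113, 39.0 to 84.4 and 20.3 to 47.4 FPKM. Untreated SLE123 replicate 3 differed from its group, with a CD4 T cell sum of 2560 FPKM against 3210 and 3280. Its B cell sum was 223 FPKM against 62.0 and 84.9, and its monocyte and neutrophil sum 84.4 against 41.2 and 39.0. Its basophil sum of 108 FPKM lay between those of its group (103 and 117). Liver markers summed to 39.4 to 46.8 FPKM in the 6 B6 libraries and 44.2 FPKM in treated SLE123 replicate 1, but to at most 0.368 FPKM in the other 5 SLE123 libraries. That treated SLE123 library therefore stands apart from its group, and the members' results that use it are also given without it. Outside that library liver RNA followed strain, so differences between the strains cannot be told apart from differences that go with liver RNA. Leaving the library out makes this split complete between treated strains too. Of 5 liver markers tested there, 5 were then called lower in SLE123, and 0 with the library kept.

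Gata3, the transcription factor that defines Th2 cells, was expressed in every library. Untreated B6 mice had 23.6, 23.9 and 22.6 FPKM and treated B6 mice had 28.3, 27.8 and 31.0 FPKM. Untreated SLE123 mice had 28.4, 33.7 and 24.1 FPKM and treated SLE123 mice had 29.8, 29.7 and 28.7 FPKM. The untreated B6 mice were the lowest group and overlapped with no other, and the other 3 groups had means within 1 SD of untreated SLE123 mice.

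Stat6, which carries the IL-4 signal, separated by strain. It was at 80.5, 81.7 and 85.2 FPKM in untreated B6 mice and at 88.1, 80.9 and 84.0 FPKM in treated B6 mice. It was at 69.6, 62.2 and 56.4 FPKM in untreated SLE123 mice and at 71.2, 67.9 and 69.2 FPKM in treated SLE123 mice. All 6 B6 libraries lay above all 6 SLE123 libraries. Exons of Stat6 overlap those of Nab2 on the other strand, and exons of Gata3 overlap those of Gm13256 and 9230102O04Rik. Whether counting used strand is not given in the sources used here, so reads of such partners cannot be told apart.

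Il4, the hallmark Th2 cytokine, also separated by strain. Untreated B6 mice had 4.71, 4.57 and 5.14 FPKM and treated B6 mice had 6.34, 7.57 and 3.73 FPKM. Untreated SLE123 mice had 11.8, 10.2 and 12.2 FPKM and treated SLE123 mice had 8.93, 10.7 and 11.2 FPKM. No SLE123 library was as low as the highest B6 library, while treated and untreated mice overlapped in both strains. These values rested on 38 to 174 fragments per library.

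Il13 and Il5, the cytokines that act on epithelium and eosinophils, were close to the limit of detection. Il13 was listed at 0.154, 0.184 and 0 FPKM in untreated B6 mice and at 0, 0.101 and 0.0493 FPKM in treated B6 mice. It was at 0.402, 0.178 and 0.246 FPKM in untreated SLE123 mice and at 0.0986, 0.661 and 0.317 FPKM in treated SLE123 mice. These were 0 to 15 fragments, where 3 fragments, the limit that a count of 0 allows, correspond to 0.105 to 0.184 FPKM. Il5 had 0 fragments in 10 libraries, 1 in treated SLE123 replicate 1 and 2 in untreated SLE123 replicate 2, so no difference in Il5 was detectable at this depth. These limits reflect counting error alone, because without molecular identifiers PCR copies are counted too. All comparisons of Il13 between 3 and 3 mice overlapped. In two-sided exact permutation tests on mean log2(FPKM + 0.1), with 0.1 the smallest p possible for 3 against 3, untreated SLE123 minus untreated B6 mice was 0.91 (p = 0.2) and treated SLE123 minus treated B6 mice was 1.46 (p = 0.2). Treatment gave -0.42 (exact p = 0.6) in B6 and 0.13 (exact p = 0.9) in SLE123. Without treated SLE123 replicate 1, 0.2 is the smallest p possible for 2 against 3. Il13 then differed by 0.63 with treatment in SLE123 (exact p = 0.4) and by 1.96 between treated strains (exact p = 0.2). The treated strains did not overlap without that library, so their p could not have been smaller. With a pseudocount of 1 the strain differences were 0.20 and 0.35, since these levels lie near the pseudocount.

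Il1rl1, the IL-33 receptor gene, was lowest in untreated B6 mice, at 0.409, 0.626 and 0.809 FPKM. Treated B6 mice had 1.49, 1.49 and 1.39 FPKM, untreated SLE123 mice 1.47, 1.59 and 1.96 FPKM, and treated SLE123 mice 2.44, 2.41 and 2.06 FPKM. Treated mice lay above untreated mice without overlap in both strains.

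Ccr4 was at 4.67, 3.93 and 3.37 FPKM in untreated B6 mice and at 4.63, 5.19 and 4.18 FPKM in treated B6 mice. It was at 5.54, 4.63 and 5.30 FPKM in untreated SLE123 mice and at 8.44, 7.43 and 7.40 FPKM in treated SLE123 mice. The treated SLE123 mice stood above all other mice, and the other groups overlapped with a neighbour. Ccr8 was at 1.5, 2.2 and 1.61 FPKM in untreated B6 mice and at 2.30, 2.38 and 2.88 FPKM in treated B6 mice. It was at 11.7, 8.98 and 11.5 FPKM in untreated SLE123 mice and at 10.1, 13.5 and 15.6 FPKM in treated SLE123 mice. Every SLE123 library was far above every B6 library for Ccr8.

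**Figure D1:**
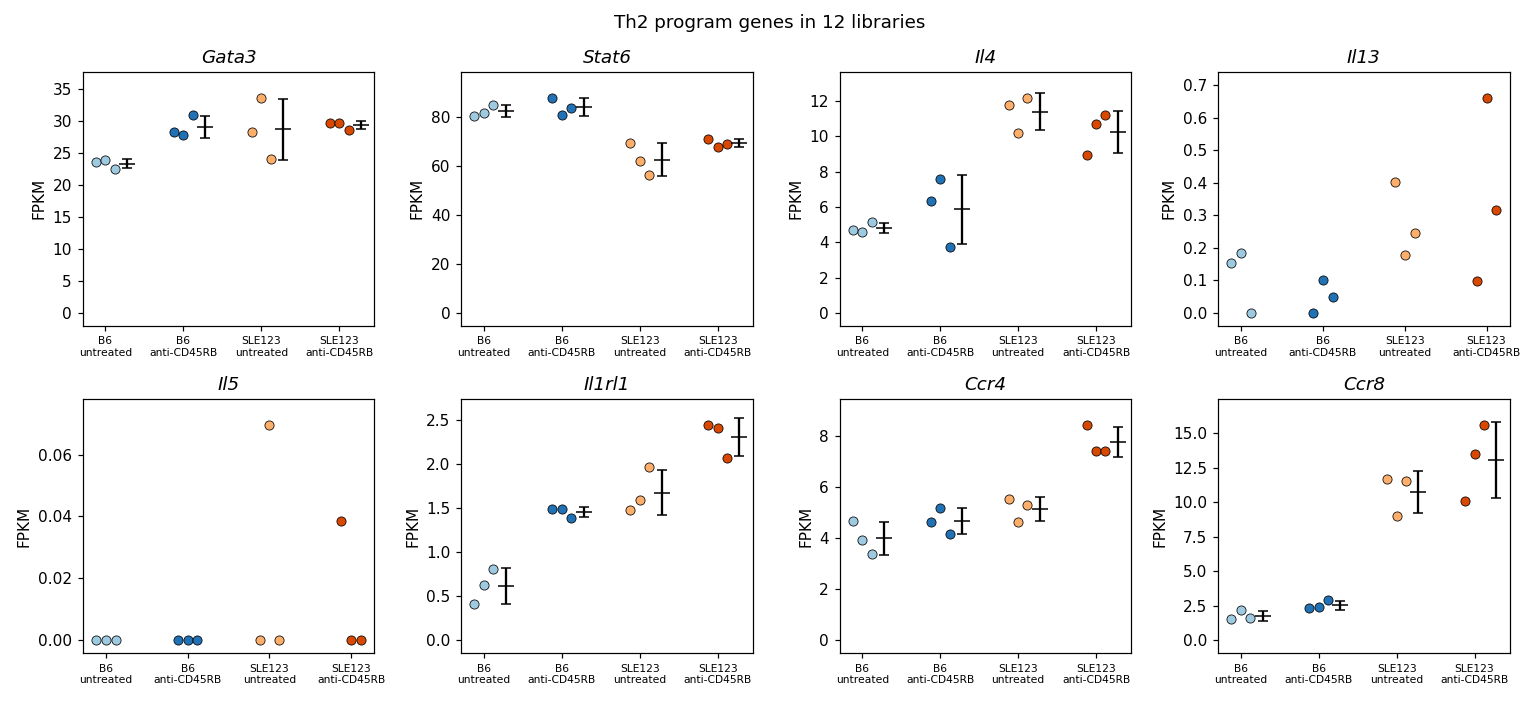
FPKM of the 8 genes (vertical axes, each from about 0) in the 4 groups (horizontal axes), with 1 point per library and, except for Il13 and Il5, the mean and SD of 3 mice as a bar beside the points. Ccr8 in SLE123 mice (8.98 to 15.6 FPKM) lies above all B6 libraries (1.5 to 2.88 FPKM), and Il5 is at 0 in 10 libraries.

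Whether anti-CD45RB changed these genes in B6 mice was tested with limma on log2(FPKM + 1), with p-values adjusted over the 13115 genes that averaged 0.5 FPKM or more. Of the 8 genes, 6 passed that filter and Il13 and Il5 did not. Gata3 and Il1rl1 rose and none fell, where 8.74% of all genes tested were called higher and 6.12% lower. Gata3 rose from 23.3 ± 0.694 to 29.1 ± 1.69 FPKM (SD, n = 3), a log2 difference of 0.30 (SE 0.05, limma adjusted p = 0.0129). Il1rl1 rose from 0.614 ± 0.2 to 1.45 ± 0.0558 FPKM (SD, n = 3), a log2 difference of 0.61 (SE 0.11, limma adjusted p = 0.0148). The log2 difference of Il1rl1 was 1.16 with a pseudocount of 0.1, since a pseudocount of 1 understates changes of low genes. Without untreated B6 replicate 4, Il1rl1 had a limma adjusted p of 0.0557, and with all 12 mice in one fit Gata3 had 0.0931. Ccr8 was higher without overlap but missed the threshold (log2 difference 0.35, limma adjusted p = 0.0993). Groups did not overlap for 3 of the 6 genes, and for 38% of all genes tested. The differences of Ccr4 (0.19), Il4 (0.20) and Stat6 (0.03) had limma adjusted p of 0.31, 0.536 and 0.632.

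In bulk RNA, more cells of a type and more RNA per cell cannot be told apart. In B6 mice 7 of the 9 basophil markers, 5 of 6 B cell markers, 5 of 5 monocyte and neutrophil markers tested and 3 of 4 Th1 markers also rose with treatment. So did 2 of 5 eosinophil markers, 2 of 4 NKT markers, 1 of 5 ILC2 markers and 1 of 6 Treg markers, while 4 of 9 CD4 T cell and 2 of 6 Tfh markers fell. Of all genes tested, 8.74% were called higher and 6.12% lower. ILC2 also carry Gata3 and ST2, and mast cells also carry ST2. Their marker sums were 10.8 to 14.3 and 0.178 to 0.587 FPKM in untreated B6 mice. In treated B6 mice these were 18.4 to 19.5 and 1.09 to 1.21 FPKM, without overlap. Within the ILC2 sum, Klrg1 averaged 0.87 and 4.88 FPKM, Il17rb 6.72 and 7.92, Rora 3.9 and 4.35, Arg1 1.19 and 1.36, Areg 0.179 and 0.269 and Nmur1 0.104 and 0.197. The mast cell sum rested on few fragments per group, 13 and 38 for Cma1, 4 and 12 for Mcpt4 and 0 and 6 for Tpsb2. Of mast cell markers, 1 was tested and 0 called. Foxp3, which defines Tregs, averaged 5.22 FPKM without and 8.02 FPKM with the antibody in B6 mice (limma adjusted p = 0.0536). The part of any of these cell types, basophils among them, in the rise of Gata3 and Il1rl1 was not tested.

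In SLE123 mice none of the 6 genes was called with treatment, where 0.0152% of all genes were called higher and 0.0229% lower, and 1369 genes had an unadjusted p under 0.05. Voom called 0 of the 6 as well. Ccr4 had the smallest p, with a mean of 5.15 ± 0.471 FPKM in untreated and 7.75 ± 0.594 FPKM in treated mice (SD, n = 3), a log2 difference of 0.51 with a 95% interval of 0.27 to 0.75 (limma adjusted p = 0.308). Il1rl1 differed by 0.31 (95% interval 0.03 to 0.58, limma adjusted p = 0.466). Ccr4 and Il1rl1 did not overlap between the groups, against 19.7% of all genes tested. Without treated SLE123 replicate 1 the differences of Ccr4 and Il1rl1 were 0.45 and 0.28, that of Ccr8 went from 0.25 to 0.41 and that of Il4 from -0.14 to -0.05. Those of Stat6 and Gata3 were 0.13 and 0.04. The intervals for Il4 (-0.40 to 0.13) and Gata3 (-0.24 to 0.33) spanned 0.

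Whether treatment acted differently in the strains was tested as the interaction, the log2 difference in SLE123 minus that in B6. None of the 6 genes was called, where 1.27% of all genes were called higher and 2.38% lower. The interaction was 0.32 for Ccr4 (95% interval -0.02 to 0.66, limma adjusted p = 0.223), -0.31 for Il1rl1 (-0.65 to 0.04, limma adjusted p = 0.248) and -0.26 for Gata3 (-0.56 to 0.04, limma adjusted p = 0.26). It was -0.34 for Il4 (-0.89 to 0.21, limma adjusted p = 0.422), 0.12 for Stat6 (limma adjusted p = 0.49) and -0.10 for Ccr8 (limma adjusted p = 0.812). The rise of Gata3 and Il1rl1 in B6 was therefore not shown to differ from the values in SLE123. Without treated SLE123 replicate 1 the interactions of Ccr4, Il1rl1, Gata3, Il4, Stat6 and Ccr8 were 0.27, -0.34, -0.27, -0.25, 0.10 and 0.06.

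Between untreated mice of the strains, Ccr8, Il4 and Il1rl1 were higher in SLE123 and Stat6 was lower. Of all genes tested, 22.8% were called higher and 20.1% lower. Ccr8 was 1.77 ± 0.375 FPKM in B6 and 10.7 ± 1.52 FPKM in SLE123 mice (SD, n = 3), 6.06-fold as a ratio of means, with a log2 difference of 2.08 (SE 0.14, limma adjusted p = 5.92e-05). Il4 was 4.81 ± 0.294 against 11.4 ± 1.06 FPKM (SD, n = 3), 2.37-fold, with a log2 difference of 1.09 (SE 0.10, limma adjusted p = 0.000205). Il1rl1 was 2.73-fold higher (log2 difference 0.73, limma adjusted p = 0.00522; 1.34 with a pseudocount of 0.1). Stat6 was 0.761 times the B6 level (log2 difference -0.39, limma adjusted p = 0.0131), and it missed the threshold without untreated B6 replicate 4 (0.0533) or replicate 5 (0.0595).

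Gata3 and Ccr4 were not called between untreated mice. Gata3 differed by 0.28 (95% interval -0.004 to 0.56, limma adjusted p = 0.0999) and Ccr4 by 0.31 (0.01 to 0.60, limma adjusted p = 0.0853). Gata3 was called without untreated SLE123 replicate 3, at 0.39 (limma adjusted p = 0.023). Groups did not overlap for 5 of the 6 genes, Ccr4 being the exception, and for 58.6% of all genes tested. Rescaled to TPM, which shifts the median of all genes by -0.35, Gata3 and Ccr4 changed sign, and the genes called went from 2990 higher and 2631 lower to 1914 and 5974.

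Between treated mice, 5 of the 6 genes were called, 4 higher in SLE123 and Stat6 lower, where 29.6% of all genes were called higher and 22.5% lower. Ccr8 differed by 1.98 (SE 0.15, limma adjusted p = 0.000107), and Ccr4 by 0.63 (SE 0.09, limma adjusted p = 0.00115). Il1rl1 differed by 0.43 (limma adjusted p = 0.00488) and Stat6 by -0.28 (limma adjusted p = 0.00188). Il4 differed by 0.75 (limma adjusted p = 0.0234) and missed the threshold without treated SLE123 replicate 2 (0.0699) or replicate 3 (0.0752). Gata3 differed by 0.02 (95% interval -0.10 to 0.14). Groups did not overlap for 5 of the 6 genes, and for 61.8% of all genes tested. Without treated SLE123 replicate 1, the same 5 genes were called, with Ccr8 at 2.14, Il4 at 0.84, Ccr4 at 0.57, Il1rl1 at 0.40 and Stat6 at -0.29. Rescaled to TPM, the genes called went from 3881 higher and 2955 lower to 2442 and 4480.

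**Figure D2:**
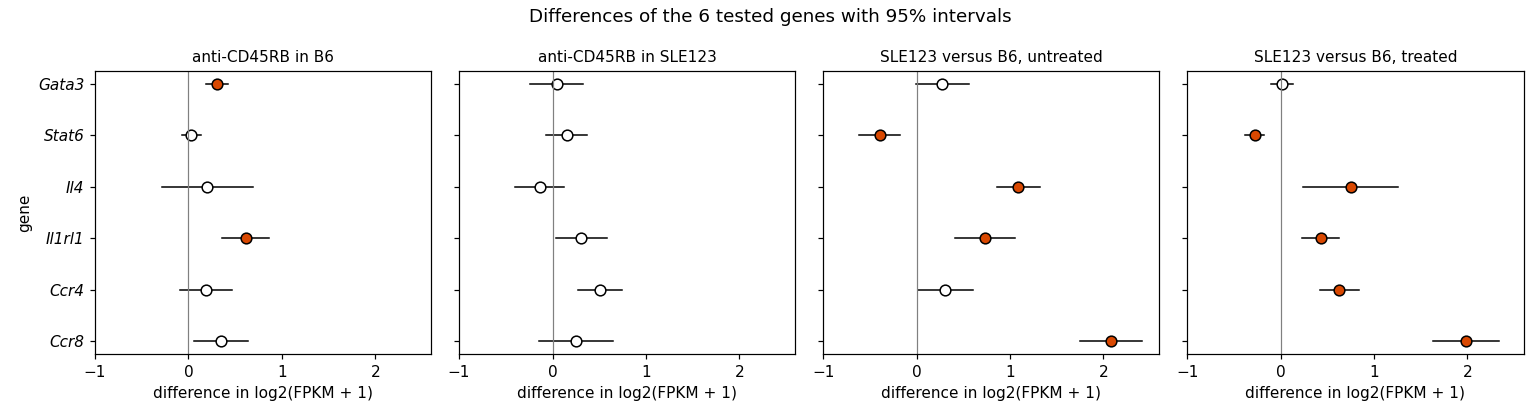
Differences in log2(FPKM + 1) (horizontal axes) of the 6 genes tested (vertical axis) in 4 comparisons, with lines for 95% intervals and filled points for limma adjusted p under 0.05. Ccr8 has the largest strain differences of the 6, 2.08 and 1.98, and no point is filled for treatment in SLE123 mice.

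Markers of other cell types also differed between the strains. Between untreated mice 8 of 9 basophil, 6 of 6 B cell, 4 of 5 eosinophil, 4 of 5 monocyte and neutrophil, 3 of 4 Th1 and 3 of 5 ILC2 markers were higher in SLE123. So were 1 of 1 mast cell and 1 of 4 NKT markers. Lower in SLE123 were 5 of 5 liver, 1 of 1 CD8 T cell, 1 of 5 ILC2 and 1 of 4 NKT markers. Of 9 CD4 T cell markers 0 were called. Between treated mice 5 of 9 CD4 T cell, 3 of 6 B cell and 3 of 4 Th1 markers were higher. So were 2 of 9 basophil, 2 of 5 eosinophil, 2 of 5 ILC2, 1 of 1 mast cell and 1 of 4 NKT markers. Lower were 3 of 5 monocyte and neutrophil, 2 of 6 B cell, 2 of 9 basophil and 2 of 5 ILC2 markers. Also lower were 2 of 4 NKT, 1 of 9 CD4 T cell and 1 of 1 CD8 T cell markers. Of all genes, 22.8% were called higher and 20.1% lower between untreated mice, and 29.6% and 22.5% between treated mice. Of the Treg markers, 5 of 6 were higher in SLE123 in untreated and in treated mice, and their sum was 43.1 to 55.3 FPKM in untreated B6 against 157 to 167 FPKM in untreated SLE123 mice. Of the Tfh markers, 6 of 6 were higher in both comparisons, with sums of 67.9 to 80.3 against 300 to 363 FPKM. The part of any of these in the levels of Ccr8, Ccr4, Il1rl1 and Il4 was not tested.

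Basophil RNA is another possible source of Il4 and Il13 in a CD4+ preparation. Mcpt8, a basophil protease, was at 0.259 to 0.581 FPKM in untreated B6 mice, 4.14 to 7.93 in treated B6 mice, 26.0 to 30.9 in untreated SLE123 mice and 7.08 to 10.2 in treated SLE123 mice. Prss34, also a basophil protease, was at 0.0909 to 0.561, 4.32 to 12.7, 55.9 to 62.0 and 13.1 to 18.8 FPKM in the same order. Cd200r3, the third defining marker, went another way, at 1.02 to 1.54 FPKM in the 6 B6 libraries and 0.281 to 0.843 FPKM in the 6 SLE123 libraries. None of the 3 was at 0 in any library.

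Mcpt8 and Prss34 moved with treatment in both strains, and Il4 was not called in either. In untreated B6 mice Mcpt8 and Prss34 were under 1 FPKM and Il4 was 4.57 to 5.14 FPKM. Other basophil markers were higher there, with means of 2.32 FPKM for Gata2, 1.84 for Cpa3 and 1.16 for Cd200r3. Fcer1a, Ms4a2, Hdc and Cyp11a1 averaged under 1 FPKM, and all 9 markers summed to 5.5 to 7.33 FPKM. In B6, treatment raised Mcpt8 by 2.23 (limma adjusted p = 0.00175) and Prss34 by 2.65 (limma adjusted p = 0.00483) on the log2 scale, and Il4 differed by 0.20. In SLE123, Mcpt8 fell by 1.59 (limma adjusted p = 0.0208) and Prss34 fell by 1.91 (limma adjusted p = 0.0111), and Il4 differed by -0.14. Those 2 were the only basophil markers called with treatment in SLE123, and the other 7 of 9 were not. In B6, 7 of 9 were called higher and 2 were not called. Of all genes tested, 8.74% were called higher in B6 and 0.0229% lower in SLE123. Between untreated mice of the strains, 8 of 9 basophil markers were higher in SLE123 (median 1.43) and Il4 was higher by 1.09. Between treated mice, 2 of 9 basophil markers were higher and 2 lower (0 and 3 without treated SLE123 replicate 1), and Il4 differed by 0.75. The part of basophil RNA in the levels of Il4, and in its strain difference, was not tested.

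Over all 12 libraries, Il4 and the basophil sum had a Pearson r of 0.745 (permutation p = 0.00637, adjusted 0.0127 over 2 relations) and a Spearman rho of 0.727 (permutation p = 0.00986, adjusted 0.0197). The strains form separate clusters in Il4, however, so this value pools 2 clusters. The permutation over all libraries ignored strain and treatment, so its p-values contain the differences between groups. Within B6 r was 0.144 (n = 6, exact permutation p = 0.75) and rho 0.0857 (exact p = 0.919), and within SLE123 r was 0.402 (n = 6, exact permutation p = 0.453) and rho 0.143 (exact p = 0.803). This split was chosen after the values were seen, with 3 relations and an adjusted exact p of 0.75 for each r. As deviations from the 4 group means, r was -0.753 over 12 libraries, given as a description. Without the 2 libraries farthest from the median basophil sum, r was 0.676 over all libraries, 0.987 in B6 and 0.693 in SLE123, the latter pair over 4 libraries each. In B6 the 4 left were the 3 untreated mice and treated replicate 3 (basophil sum 20.5 FPKM, Il4 7.57 FPKM), so 0.987 rests on that 1 treated library. Il13 had an r of 0.365 (permutation p = 0.242, adjusted 0.242) and a rho of 0.329 (permutation p = 0.294) over 12 libraries, 0.343 without 2 libraries. Within SLE123 its r was -0.255 (n = 6, exact permutation p = 0.6) and its rho -0.543 (exact p = 0.297), and r was 0.452 without 2 libraries, so the sign rests on those libraries. Without treated SLE123 replicate 1, r of Il4 was 0.741 over 11 libraries (permutation p = 0.0128) and 0.232 within SLE123 (exact p = 0.683), and r of Il13 was 0.385 (permutation p = 0.241) and -0.702 (exact p = 0.217).

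**Figure D3:**
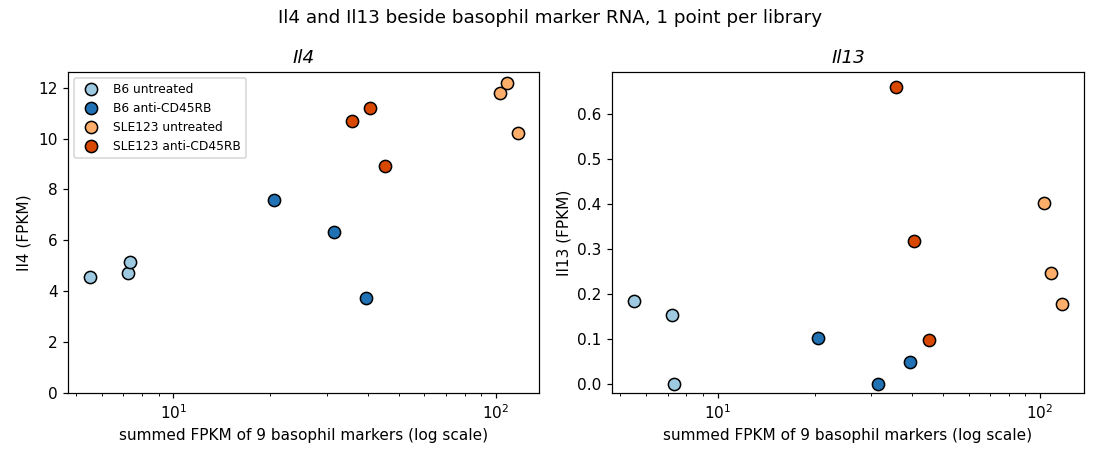
Il4 (left) and Il13 (right) in FPKM on the vertical axes against the summed FPKM of 9 basophil markers on a log scale, 1 point per library, colored by group. Untreated B6 libraries lie at a basophil sum of 5.5 to 7.33 with Il4 at 4.57 to 5.14, and within each strain Il4 of treated and untreated mice overlaps.

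The wider Th2 pathway was followed in lists of receptors and signalling genes, transcription factors, other cytokines and effectors, and neighbours of the cytokine locus. With treatment in B6 mice, 2 of 22 receptor and signalling genes tested rose and 1 fell, shares near the 8.74% and 6.12% of all genes. Cish, a feedback inhibitor of cytokine signalling, rose by 0.40 and Il2rg, the shared cytokine receptor chain, by 0.16, while Jak3, the kinase bound to that chain, fell by 0.30. Of the 20 genes listed as promoting factors of Th2 cells, 4 rose, with Bhlhe40 at 0.63, Bhlhe41 at 0.44 and Notch2 at 0.30. In that list 3 fell, with Myb at -0.51, Junb at -0.46 and Tcf7 at -0.21. Besides transcription factors the list holds the receptors Notch1 and Notch2 and the phosphatase Dusp10. Of 11 opposing factors, Tbx21, the Th1 regulator, rose by 0.48 and Nfkbid fell by 0.30. Of 9 other cytokines and effectors tested out of 23, Ecm1 rose by 0.68 and Penk by 0.50. Of the 5 locus neighbours, Septin8 rose by 0.62. The median log2 difference was 0.04 over the receptor list and -0.04 over the promoting factors, beside 0.00 over all genes tested. In SLE123 mice 0 genes of these 5 lists were called.

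Between untreated strains, 5 of 22 receptor genes were higher in SLE123 and 6 lower, near the 22.8% and 20.1% of all genes, beside which the counts of the other lists are also to be read. Il4ra, the receptor chain through which IL-4 acts, was at 63.3 to 65.6 FPKM in B6 and 17.4 to 30.4 FPKM in SLE123 mice (log2 difference -1.39, limma adjusted p = 0.00107). Il17rb, the IL-25 receptor, differed by -1.003 and Il7r by -0.87. Il13ra1, the partner chain of Il4ra, differed by 2.74, Jak3 by 1.04 and Socs1 by 0.68. Of the promoting factors 10 of 20 were higher, led by Irf4 (2.71), Nfil3 (2.53) and Maf (2.24), and 5 were lower, led by Satb1 (-1.77), Tcf7 (-0.80) and Ikzf1 (-0.71). Maf, which activates Il4 directly, was at 9.95 to 13.1 FPKM in B6 and 55.2 to 61.7 FPKM in SLE123 mice. Of the opposing factors 5 of 11 were higher, among them Bcl6 (1.39) and Eomes (1.13), and 3 were lower, Sox4 (-0.92), Nfkbid (-0.40) and Runx1 (-0.30). Among other cytokines and effectors 6 of 9 were higher, led by Il21 (3.50), Il10 (3.02) and Penk (2.31), and Ecm1 (-0.90) and Cd200r1 (-0.28) were lower. Il21 and Bcl6 are best known from Tfh cells and Il10 from regulatory cells. Of the locus neighbours, Septin8 (0.97) and Kif3a (0.48) were higher and Slc22a5 (-0.32) lower.

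Between treated strains, where 29.6% of all genes were higher and 22.5% lower, 10 of 22 receptor genes were higher in SLE123 and 7 lower, with Jak3 at 1.55, Il13ra1 at 1.43, Socs1 at 0.65, Il7r at -1.04, Il4ra at -0.96 and Il17rb at -0.60. Of the promoting factors 12 of 20 were higher and 5 lower, with Irf4 at 2.35, Maf at 2.34, Nfil3 at 2.15, Satb1 at -1.19, Dusp10 at -0.60 and Ets1 at -0.36. Of the opposing factors 6 of 11 were higher and 2 lower, with Bcl6 at 1.73, Eomes at 0.95, Sox4 at -0.69 and Runx3 at -0.19. Of other cytokines and effectors 6 of 9 were higher and Ecm1 (-0.86) lower, with Il21 at 3.70, Il10 at 2.599 and Penk at 1.53. Kif3a (0.24) and Rad50 (0.23) were higher and Slc22a5 (-0.21) lower among the locus neighbours. The counts higher and lower without treated SLE123 replicate 1 were 9 and 6 of the receptor genes, 11 and 6 of the promoting factors, 4 and 2 of the opposing factors, 6 and 1 of the effectors and 1 and 1 of the neighbours.

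**Figure D4:**
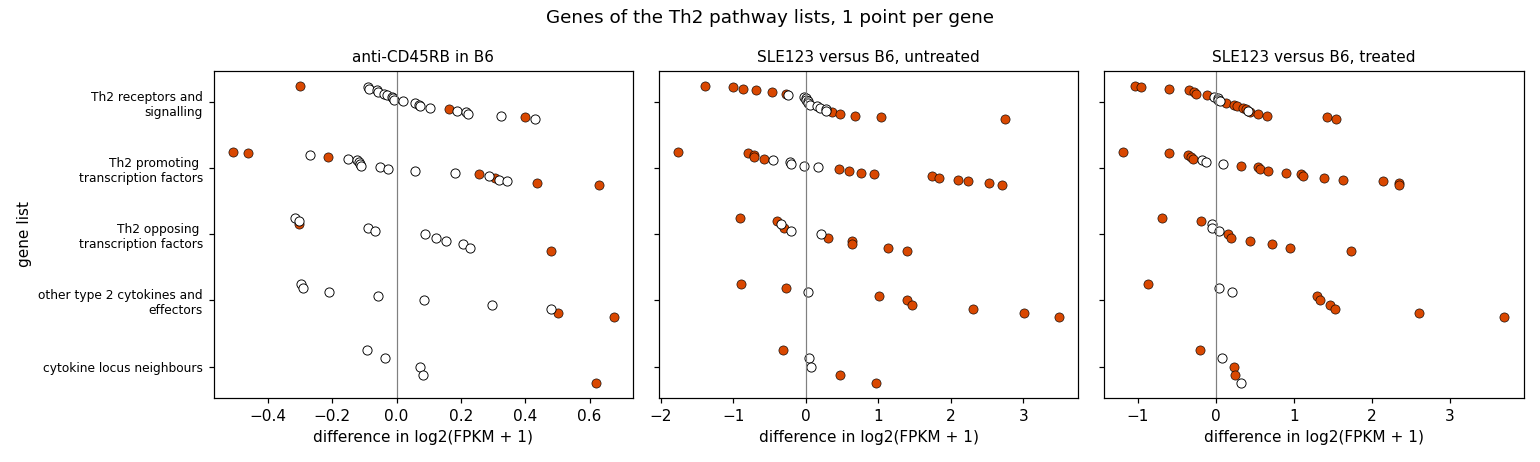
Differences in log2(FPKM + 1) (horizontal axes) of each gene in 5 Th2 pathway lists (vertical axis) for treatment in B6 mice and for the strains untreated and treated, with filled points for limma adjusted p under 0.05. The horizontal scale differs between panels, and Il21 lies farthest right between the strains, at 3.50 and 3.70.

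As a description over 12 libraries, the protein-coding genes whose log2(FPKM + 0.1) was most like each member, out of 11202 searched, were as follows. Gata3 was most like C2cd2 (r = 0.919), Rarg (0.913) and S100a13 (0.902), and Stat6 was most like Ikbke (0.993), Afap1 (0.991) and Arhgap45 (0.991). Il4 was most like Plcb4 (0.968), Phtf2 (0.964) and Wipf3 (0.964), and Il13, at few fragments, was most like Rabl3 (0.866), Cyren (0.866) and Wwp2 (0.865). Il1rl1 was most like 2900026A02Rik (0.966), Rbbp8 (0.965) and Paqr4 (0.956). Ccr4 was most like Dhx58 (0.966), Lgals3bp (0.965) and Rad21 (0.954), and Ccr8 was most like Mrgpre (0.993), Car5b (0.992) and Cpd (0.991). The libraries share strain and treatment, which these r values contain.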

How the data were processed

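The authors deposited FPKM values per Ensembl gene and library, made after removal of adaptors and low-quality reads and mapping to a reference genome. The submitters' processing notes name CASAVA 1.8, STAR and mm10. The methods give base calling as the role of CASAVA, and those of the other names are not given in the sources used here. The authors tested conditions with DESeq2, which was not run. All 23230 genes above 0 were whole multiples of 1 fragment (tolerance 0.02), and fragments and totals (13563595 to 23642951, median 16828671) were recovered from them. Of 35275 identifiers, 34490 matched GENCODE M21, which gave symbols and positions.

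Groups came from the labels. Genes averaging 0.5 FPKM or more were tested as log2(FPKM + 1) with limma 3.58.1 (R 4.3.3), and p-values were adjusted by Benjamini-Hochberg with a threshold of 0.05. Each comparison used its 6 mice, and the interaction used all 12. On simulated data with 200 changed genes, limma called 52.5% of those changed by 0.5 (log2) in the B6 treatment comparison and 0% in the SLE123 one. It called 90% and 70% of those changed by 1, and 0 genes when none was changed. Genes were simulated independently, and counting noise was added to an observed spread that already held it. Rates in the data may therefore differ. Il13 and Il5 were tested by exact permutation (SciPy 1.17.1) with a pseudocount of 0.1, and relations over 12 libraries with 100000 resamples. The relation with basophil markers was planned over all 12 libraries. The split by strain, without Il13 in B6 for lack of fragments, was added after the values were seen. The members and lists were chosen with earlier results of these data known. All 8 members are named, and of each pathway list and comparison up to 3 called genes with the largest rise and 3 with the largest fall, with locus neighbours, defining markers and the 3 nearest patterns. An item that this rule would name among the opposing factors is not reported here. Alternatives were a pseudocount of 0.1, a filter of 1 FPKM or none, TPM, median centring, voom on recovered fragments, all 12 mice in one fit, a replicate block, and each mouse left out.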

Additional observations from a re-analysis of the deposited data

Results flagged for a closer look

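None of the 8 members was flagged. The treatment effect differed between the strains by the limma interaction for 3 genes of the Th2 pathway lists. Il13ra1 was at 0.0837 to 0.194 FPKM in untreated and 0.336 to 0.874 FPKM in treated B6 mice, and at 4.64 to 8.66 FPKM in untreated and 2.29 to 3.79 FPKM in treated SLE123 mice, an interaction of -1.32 (limma adjusted p = 0.034). Jak3 averaged 64.8 and 52.4 FPKM in untreated and treated B6 mice and 134 and 155 FPKM in SLE123 mice, an interaction of 0.51 (limma adjusted p = 0.041). Penk averaged 1.56 and 2.61 FPKM in B6 and 11.8 and 9.40 FPKM in SLE123 mice, an interaction of -0.79 (limma adjusted p = 0.0252). The basophil markers Mcpt8 and Prss34, whose values stand beside Il4 in the report, had interactions of -3.81 (limma adjusted p = 9.64e-05) and -4.56 (limma adjusted p = 0.000325). For the interaction 7 of 9 basophil, 5 of 5 monocyte and neutrophil and 4 of 5 eosinophil markers were called lower. So were 3 of 6 B cell, 1 of 5 ILC2 and 1 of 4 NKT markers, and 0 of 9 CD4 T cell markers were called. Of all genes tested, 1.27% were called higher and 2.38% lower. The part of these cells in the 3 pathway genes was not tested. With 1 mouse left out, the interaction missed the threshold in 9 of 12 fits for Il13ra1, 10 of 12 for Jak3 and 7 of 12 for Penk, but in 0 of 12 for Mcpt8 and Prss34. Leaving out treated SLE123 replicate 1 gave Il13ra1 at -1.15 (limma adjusted p = 0.0749) and Penk at -0.743 (limma adjusted p = 0.0665).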

How the results depend on the processing

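Of the members' calls, those of Ccr8 between strains, Ccr4 between treated strains and Il4 and Il1rl1 between untreated strains were called under every alternative run. In B6, all 12 mice in one fit called 815 genes and 1 member, and no filter called 1134 genes, beside 1948 genes and 2 members. Leaving out 1 mouse gave 675 to 1393 genes and 1 to 2 members in B6, 1 to 7 genes and 0 members in SLE123, 3672 to 6469 genes and 3 to 5 members between untreated strains, 5524 to 6685 genes and 4 to 5 members between treated strains, and 205 to 2917 genes and 0 members for the interaction, the highest without untreated SLE123 replicate 1. In SLE123, 5 genes were called, 21 after rescaling to TPM, 3 with voom and 53 with all 12 mice in one fit. With all 12 mice in one fit, Gata3 (0.0294) and Ccr4 (0.032) were called between untreated strains. With no filter Il4 missed the threshold between treated strains (limma adjusted p = 0.0887). The cause was not tested.

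Whether the replicate numbers pair the mice is not known. Deviations of same-numbered mice from their group means correlated at -0.14 and -0.0936 in B6, 0.137, -0.161 and 0.266 in SLE123, and 0.0647 and 0.143 between treated strains. These values cannot settle pairing, because deviations within a group of 3 mice sum to 0. With the replicate number as a block, 0 genes and 0 members were called in B6 (Gata3 0.198, Il1rl1 0.215), 3414 genes and 3 members between treated strains (Stat6 0.0513, Il1rl1 0.112), and 34 genes for the interaction. No paired analysis was possible between untreated strains because they share 1 number.

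Signs turned for values that were not called. Gata3 in SLE123 was -0.00259 with voom and ranged from -0.071 (without untreated SLE123 replicate 3) to 0.162 with 1 mouse left out. Gata3 between untreated strains was -0.0944 with TPM. Gata3 between treated strains was -0.159 with TPM, -0.0189 with median centring and -0.0112 with voom, and ranged from -0.0111 (without treated B6 replicate 3) to 0.0635 with 1 mouse left out. Stat6 in B6 was -0.00638 under the replicate block and ranged from -0.000278 (without treated B6 replicate 1) to 0.0609. With TPM, Il4 in SLE123 was 0.0405, Ccr4 between untreated strains -0.00462 and the Ccr8 interaction 0.0216, and the last ranged from -0.226 to 0.0613 (without treated SLE123 replicate 1). Within SLE123, r of Il13 with basophil markers was 0.452 without 2 libraries. TPM shifted the median of all genes by 0.18 in SLE123, -0.35 between untreated strains, -0.16 between treated strains and 0.19 for the interaction. With a pseudocount of 1, the Il13 differences were 0.197 between untreated and 0.352 between treated strains. Of the calls of named list genes, 108 of 492 were lost with 1 mouse left out and 66 of 582 under the other alternatives, with no sign turned.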
